A study of Homo sapiens with 12 samples.

Results

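Cells carry several routes for mending damaged DNA, and the 55 genes followed here cover the main ones: recombination, break sensing, interstrand crosslink repair, mismatch repair, end joining, and base and nucleotide excision. The genes were taken by symbol from a list, with no cut-off on a measured value, but earlier results of these data were known when it was written. Of the 55, 54 are among the 12616 genes with values, and ERCC5 is not analysed here. They were compared in MeWo and SkMel28, established human lines of cutaneous melanoma that carry a hairpin RNA against MITF under doxycycline (Dox) control. Each line was kept for 8 days with Dox at 1 µg/ml, which switches the hairpin on, or without Dox at 0 µg/ml, and 3 libraries were made per line and dose. The 4 groups of 3 are called MeWo control, MeWo Dox, SkMel28 control and SkMel28 Dox. All 12 libraries come from hairpin-carrying cells, and no hairpin-free cells given Dox enter the comparisons, so a change with Dox is that of hairpin and drug combined. By the labels MeWo grew in EMEM and SkMel28 in RPMI, both with 10% FBS, so line and medium cannot be told apart. The labels do not say that the 3 libraries of a group are separate cultures, and the p-values measure only the spread between these libraries, which may be technical.

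Homologous recombination copies lost sequence from an intact sister chromatid: break ends are trimmed, BRCA1 and BRCA2 with their partners prepare the strand for pairing, and helicases such as BLM resolve the intermediates. End joining instead ligates break ends without a template, and the Fanconi anaemia proteins free strands that are crosslinked to each other. Excision routes act on 1 strand: glycosylases such as UNG and OGG1 remove single bases, mismatch repair corrects copying errors, and nucleotide excision removes bulky lesions such as the photoproducts of ultraviolet light. MITF is the transcription factor of the melanocyte lineage and binds E-box sequences.

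Promoter stretches are printed for 3 members on which the results turn: UNG, which fell in MeWo, BLM, which fell in SkMel28, and APEX1, the member with the largest shortfall in SkMel28 relative to MeWo. The sequences are from RefSeq (GRCh38.p14), read 5′ to 3′ on the strand of the gene, and cover bases outside any annotated exon, upstream of the gene. Capitals mark E-box letters (CACGTG, or CATGTG read on either strand, where CACATG is CATGTG on the other strand). UNG, chr12:109097447-109097596, plus strand, holds 1 such match, APEX1, chr14:20455090-20455190, plus strand, holds 2, and BLM, chr15:90717196-90717345, plus strand, holds 0 of the searched letters.
UNG: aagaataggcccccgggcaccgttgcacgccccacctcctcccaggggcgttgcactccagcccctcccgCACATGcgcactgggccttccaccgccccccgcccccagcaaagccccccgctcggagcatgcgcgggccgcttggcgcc
APEX1: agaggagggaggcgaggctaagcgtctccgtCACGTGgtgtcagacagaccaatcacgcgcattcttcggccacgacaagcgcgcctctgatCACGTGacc
BLM: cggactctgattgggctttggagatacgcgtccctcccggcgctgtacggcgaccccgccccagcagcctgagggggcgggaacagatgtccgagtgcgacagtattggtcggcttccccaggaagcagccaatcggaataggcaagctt

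Values are normalised reads, that is reads at the 3′ ends of transcripts per 1000000 of an effective library size, and are called levels below. The libraries held 2568187 to 3714608 reads, and 1 read is worth 0.278 to 0.389 on this scale. Changes are differences of group means of log2(level + 1), given ± SE and tested with limma across all 12616 genes. A gene was called when its Benjamini-Hochberg adjusted p fell under 0.05. MITF itself stood at 657, 663 and 708 in the MeWo control libraries and at 451, 354 and 371 with Dox, a fall of 42.0% of the mean (−0.79 ± 0.11, adjusted p = 6.49e-05). In SkMel28 it stood at 861, 739 and 792 without Dox and at 575, 578 and 552 with Dox, a fall of 28.7% (−0.49 ± 0.11, adjusted p = 0.00705). MITF was thus lower in every Dox library, and the knock-down was partial in both lines. All 8 melanocyte lineage markers are in the table, and their summed level was 13080 to 13277 without Dox and 6706 to 8414 with it in MeWo. In SkMel28 the sums were 11490 to 12844 without Dox and 7657 to 8001 with it. In MeWo Dox replicate 1 some members, such as UNG, MSH6, OGG1 and ERCC3, lay nearer to the control level than in replicates 2 and 3. MeWo results are therefore given with and without it. This did not hold over the members as a set. Their median difference from the control mean was −0.15, −0.019 and −0.18 in MeWo Dox replicates 1, 2 and 3, so replicate 2 was nearest.

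With Dox, 5 of the 54 repair genes were called in MeWo, 4 lower and 1 higher, and 6 were called in SkMel28, all lower. No member was called in both lines, and the tests of the difference between the lines are given further on. ATM, ATR, PARP1 and UNG fell and ERCC3 rose in MeWo, whereas BRCA1, RAD54L, XRCC3, BLM, CHEK2 and FANCI fell in SkMel28. The members called in MeWo are 9.26% of the 54, below the 16.7% called among all genes tested. By direction, 7.41% of members were called lower against 8.12% of all genes, and 1.85% higher against 8.58%. In SkMel28, 11.1% were called in either direction against 10.9% of all genes. The direction differed from the background there: 11.1% of members were called lower against 5.04% of all genes, and 0 were called higher against 5.88%. At an unadjusted p under 0.05 limma and DESeq2 gave 0 members higher in SkMel28, edgeR gave 1, and limma with SkMel28 fitted alone gave 2. After adjustment edgeR, DESeq2 and limma on SkMel28 alone called 0 higher.

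**Figure D1:**
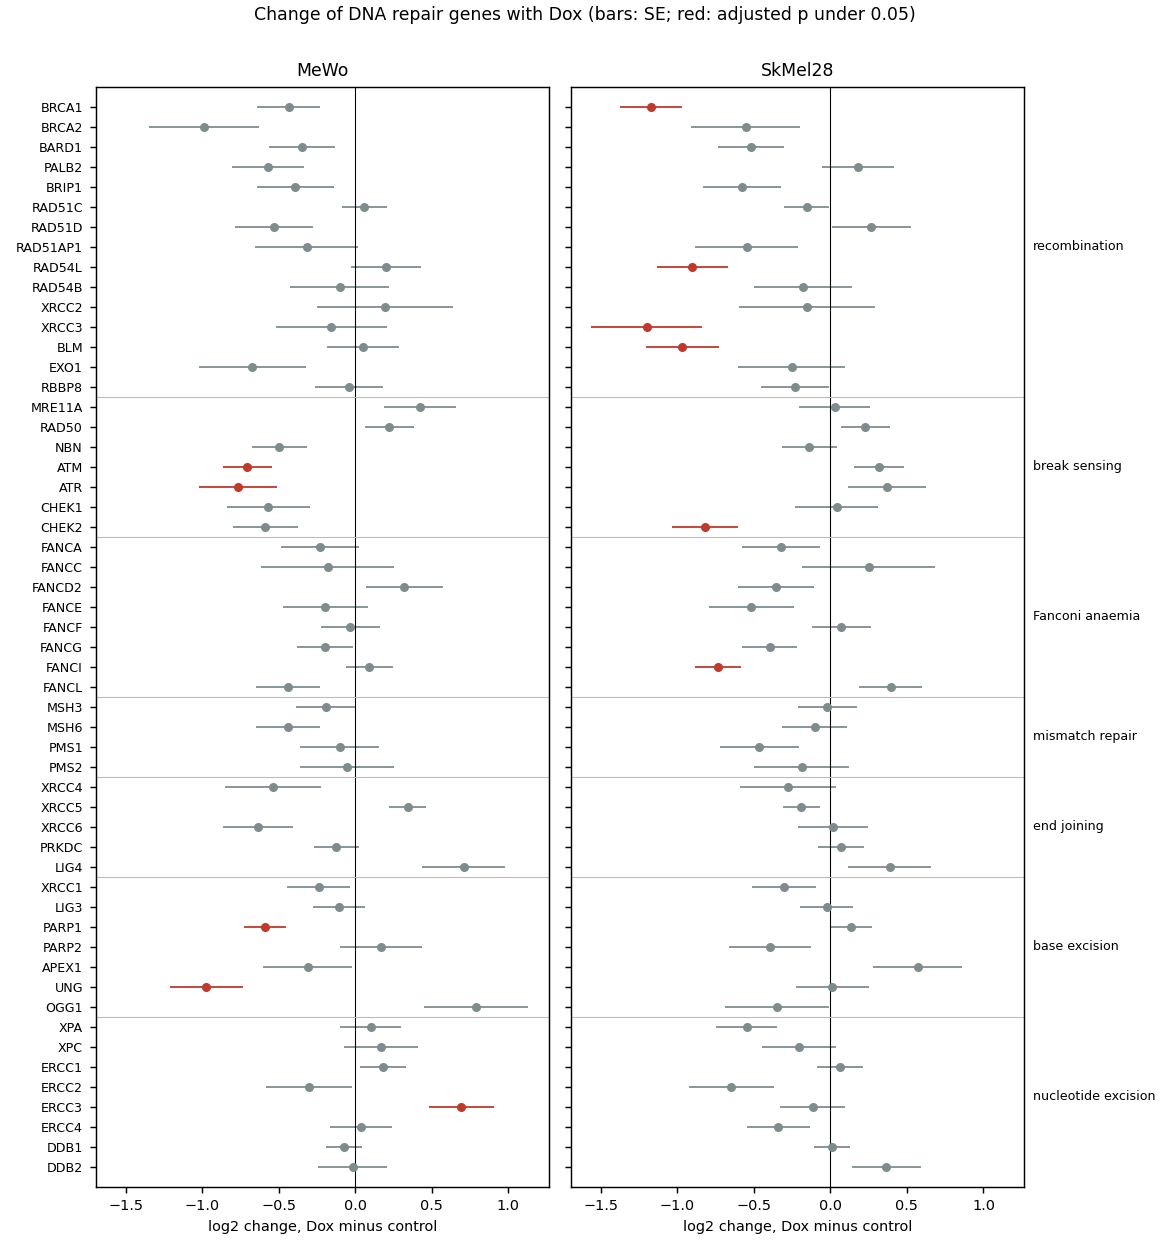
Change of each of the 54 repair genes with Dox (x axis, difference of mean log2(level + 1), Dox minus control, bars ± SE, 3 libraries per group), grouped by repair route, in MeWo (left) and SkMel28 (right). Red marks the 5 genes called in MeWo and the 6 called in SkMel28. When libraries were scaled to spike-ins the MeWo values of members and of all genes moved up. Then 4 members were called higher (7.41%, against 16.6% of all genes) and 1 lower (1.85%, against 3.04%).

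The median change over the 54 genes was −0.17 in MeWo and −0.18 in SkMel28, while the median over all genes was 0.00 and 0.0029. In MeWo 37 of the 54 lay below 0, and in SkMel28 35 did. All 3 Dox libraries were lower than all 3 controls for 10 members in MeWo (18.5%, against 14.7% of all genes) and higher for 3 (5.56%, against 14.1%). The corresponding numbers in SkMel28 were 16 lower (29.6%, against 16.1% of all genes) and 4 higher (7.41%, against 16.1%). Scaling to the spike-in RNAs in place of the trimmed mean moved the median of all genes by 0.22 in MeWo and by −0.079 in SkMel28. Under it the median over the members in MeWo changed sign to 0.054, which is 0.17 below the median of all genes. With this scaling 4 members were called higher (7.41%, against 16.6% of all genes) and 1 lower (1.85%, against 3.04%). In SkMel28 the split stayed at 6 lower (11.1%, against 4.22% of all genes) and 0 higher (against 3.12%).

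Recombination genes made up 4 of the 6 falls in SkMel28, that is 4 of 15 on this route, where 5.04% of all genes were called lower. Of the 15 recombination genes 13 lay below 0 in this line, with a median change of −0.52, and under spike-in scaling the median was −0.61. Of 30 replication and mitosis markers measured beside them, 16 were called lower (53.3%, against 5.04% of all genes). Their part in the result was not tested. In bulk libraries fewer dividing cells and less RNA per cell cannot be told apart. BRCA1, the tumour suppressor that steers breaks to recombination, stood at 54.8, 53.9 and 59.8 in the SkMel28 controls and at 25.2, 28.1 and 20.2 with Dox. Every Dox library was far below every control. The change was −1.17 ± 0.20 (adjusted p = 0.000928), and the call held under all 23 alternative settings. BRCA1 lies on chromosome 17, 43044295 to 43170245, minus strand (GENCODE 44, hg38).

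BLM, the helicase lost in Bloom syndrome (chromosome 15, 90717346 to 90816166, plus strand), stood at 18.9, 15.5 and 20.7 in the SkMel28 controls and at 8.91, 7.35 and 10.6 with Dox. The groups do not overlap, and the change was −0.97 ± 0.24 (adjusted p = 0.0131). The adjusted p rose to 0.0505 without SkMel28 control replicate 1, to 0.0678 without control replicate 3 and to 0.0765 without Dox replicate 2, with changes between −0.94 and −0.85. RAD54L, a motor protein of recombination (chromosome 1, 46246461 to 46278480, plus strand), had 12.3, 11.1 and 12.3 in the controls and 6.23, 5.68 and 5.74 with Dox. The replicates of either group lay close together, and the groups are far apart. Its change was −0.90 ± 0.23 (adjusted p = 0.0164), and the adjusted p rose to 0.0581, 0.0606 and 0.0624 without SkMel28 control replicate 1, control replicate 3 or Dox replicate 2. LRRC41 covers the last 500 bases of RAD54L on the other strand and had a change of 0.39 ± 0.21 in SkMel28 (adjusted p = 0.285), not in the direction of RAD54L.

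XRCC3, a recombination gene (chromosome 14, 103697609 to 103715504, minus strand), had few reads. Its levels were 3.06, 7.30 and 5.36 in the SkMel28 controls, from 11 to 23 reads, and 1.78, 2.34 and 0.907 with Dox, from 3 to 7 reads. The groups do not overlap, but the lowest control is near the highest Dox library. The change was −1.20 ± 0.36 (adjusted p = 0.0417) and lost its call in 13 of 22 alternatives, among them DESeq2 (0.0561), a pseudocount of 0.1 in place of 1 (0.0932) and the removal of a GC trend (0.0989). The call was lost without SkMel28 control replicate 2 (−0.96, adjusted p = 0.165), control replicate 3 (0.127), Dox replicate 1 (0.0949), 2 (0.0572) or 3 (0.152), and without any 1 of the MeWo controls (0.0527 to 0.0578). KLC1, on the other strand over the end of XRCC3, had a change of 0.24 ± 0.14 (adjusted p = 0.334).

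**Figure D2:**
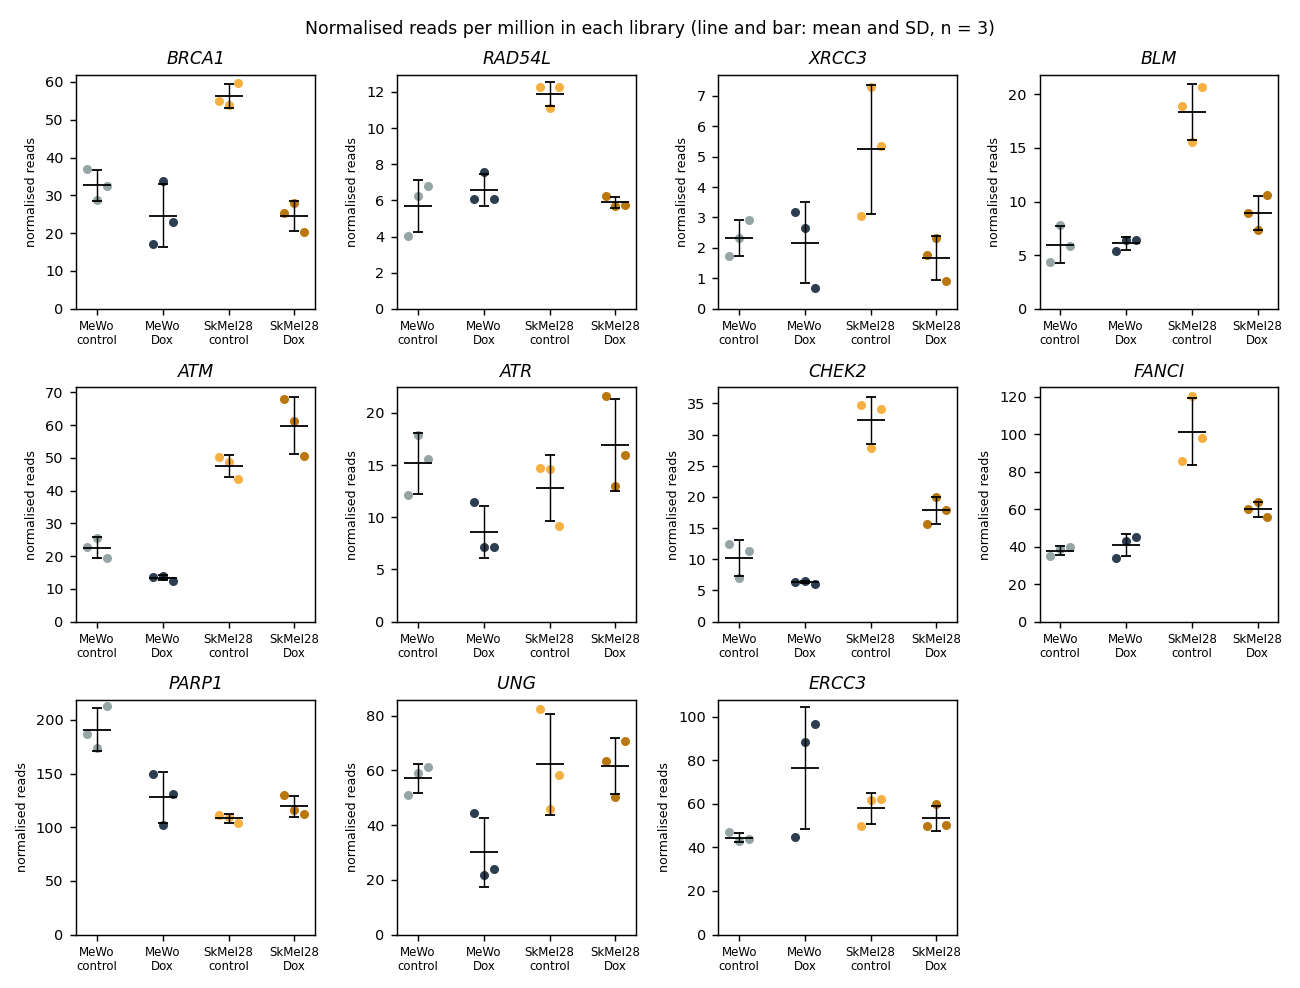
Normalised reads (y axis, per 1000000, from 0) of the 11 members called with Dox in either line, in each of the 12 libraries, where points are libraries and the line and bar give mean and SD (n = 3). The Dox points of BRCA1, RAD54L, XRCC3, BLM, CHEK2 and FANCI all lie below the controls in SkMel28, and those of ATM, ATR, PARP1 and UNG all lie below the controls in MeWo, while MeWo Dox replicate 1 of ERCC3 sits among the controls.

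The other 11 recombination genes were not called in SkMel28, with changes between −0.58 (BRIP1) and 0.27 (RAD51D) and a smallest adjusted p of 0.148 (BARD1). In MeWo, where limma called 16.7% of all genes, 0 of the 15 were called by limma, edgeR or DESeq2. At an unadjusted p under 0.05 with limma 3 lay lower. The MeWo changes ranged from −0.99 (BRCA2, adjusted p = 0.068) to 0.20 (RAD54L), with a median of −0.32, which was −0.092 under spike-in scaling. BRCA2, a tumour suppressor of recombination, rested on 1 to 16 reads per MeWo library. XRCC2 was at the floor in MeWo Dox, with at most 3 reads in each of the 3 libraries, and no library had more than 8.

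Among the 7 sensors and kinases that answer a break, 2 fell in MeWo and 1 in SkMel28. Of all genes 8.12% were called lower in MeWo and 5.04% in SkMel28. ATM was the 1 of the 7 whose change was called as different between the lines. ATM, the kinase that responds to double-strand breaks (chromosome 11, 108223044 to 108369102, plus strand), stood at 22.7, 25.6 and 19.4 in the MeWo controls and at 13.7, 14.0 and 12.5 with Dox. In SkMel28 it stood at 50.1, 48.9 and 43.7 without Dox and at 68.0, 61.2 and 50.5 with Dox. The Dox libraries were below all controls in MeWo and above all controls in SkMel28, where Dox replicate 3 was only just above the highest control. The change in MeWo was −0.70 ± 0.16 (adjusted p = 0.00594), and without MeWo Dox replicate 1 it was −0.72 (adjusted p = 0.00299). The change in SkMel28 was 0.32 ± 0.16 and not called (adjusted p = 0.246). The difference between the changes, MeWo minus SkMel28, was −1.02 ± 0.23 (adjusted p = 0.0128), and it kept its call in 21 of 22 alternatives, falling short under spike-in scaling (−0.67, adjusted p = 0.18). The MeWo fall was also not called under spike-in scaling (−0.45, adjusted p = 0.18) or when MeWo was fitted alone (adjusted p = 0.0589).

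ATR, the kinase that responds to single-stranded DNA at stalled forks, stood at 12.1, 17.9 and 15.5 in the MeWo controls and at 11.5, 7.20 and 7.11 with Dox. Dox replicate 1 is only just below the lowest control. The change was −0.77 ± 0.26 (adjusted p = 0.0494), and without MeWo Dox replicate 1 it was −0.97 (adjusted p = 0.00801). ATR lost its call in 18 of 23 alternatives, by edgeR (0.0575) and DESeq2 (0.0751) among others, and without MeWo control replicate 2 (0.182) or 3 (0.132), MeWo Dox replicate 2 (0.145) or 3 (0.165), SkMel28 control replicate 1 (0.0591) or 2 (0.0559), or any 1 of the SkMel28 Dox libraries (0.0508 to 0.0621). ATR had levels of 14.8, 14.6 and 9.20 in the SkMel28 controls and of 21.7, 13.0 and 16.0 with Dox, which overlap (0.37 ± 0.26, adjusted p = 0.421). The gene lies on chromosome 3, 142449007 to 142578733, minus strand.

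CHEK2, the effector kinase downstream of ATM (chromosome 22, 28687743 to 28742422, minus strand), fell in SkMel28. It stood at 34.8, 27.9 and 34.1 in the controls and at 15.7, 20.1 and 17.8 with Dox, with no overlap. The change was −0.82 ± 0.22 (adjusted p = 0.0201), and the call was lost without SkMel28 control replicate 1 (0.081), control replicate 3 (0.0833), Dox replicate 1 (0.0947) or Dox replicate 3 (0.0539), with changes of −0.82 to −0.73. In MeWo CHEK2 had 12.4, 6.99 and 11.3 without Dox and 6.38, 6.44 and 6.10 with Dox. These Dox levels are also below every control, but the change missed the threshold (−0.59 ± 0.22, adjusted p = 0.0717) and was called without MeWo control replicate 2 (−0.81, adjusted p = 0.0208). MeWo minus SkMel28, the changes differed by 0.23 ± 0.30 (adjusted p = 0.667, not called). The annotation holds 6 pseudogenes named after CHEK2, and how reads with several matches were counted is not given in the sources used here.

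Of the remaining break-sensing genes, MRE11A (the older symbol of MRE11) and RAD50, both subunits of the complex that binds break ends, had changes of 0.43 and 0.22 in MeWo and 0.027 and 0.23 in SkMel28, not called. NBN, the third subunit, had −0.50 in MeWo (adjusted p = 0.069) and −0.14 in SkMel28, and CHEK1, the kinase downstream of ATR, had −0.57 and 0.040. The median over the 7 genes was −0.57 in MeWo, or −0.34 under spike-in scaling, and 0.040 in SkMel28, where it changed sign to −0.050 under spike-in scaling. By library the MeWo Dox medians were −0.36, −0.56 and −0.53 relative to the control mean, and the SkMel28 Dox medians were 0.085, 0.047 and 0.086.

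Among the 8 Fanconi anaemia genes 1 was called with Dox, in SkMel28, where 10.9% of all genes were called. In MeWo, where 16.7% of all genes were called, 0 of the 8 were. The called gene was FANCI, which clamps onto crosslinked DNA together with FANCD2. Its levels in SkMel28 were 85.8, 121 and 97.7 without Dox and 60.3, 63.8 and 55.9 with Dox. In MeWo they were 35.1, 38.9 and 39.8 without Dox and 34.2, 42.8 and 45.4 with Dox. The SkMel28 groups do not overlap, whereas the MeWo groups do. The change was −0.73 ± 0.15 in SkMel28 (adjusted p = 0.00373), called under all 23 alternatives, and 0.094 ± 0.15 in MeWo (adjusted p = 0.731). POLG, on the other strand over the end of FANCI, had 0.11 ± 0.16 in SkMel28. FANCI lies on chromosome 15, 89243945 to 89317261, plus strand. The other 7 ranged from −0.52 (FANCE) to 0.39 (FANCL) in SkMel28 and, with FANCI, from −0.44 (FANCL) to 0.32 (FANCD2) in MeWo. The median over the route was −0.34 in SkMel28 and −0.19 in MeWo, and the latter changed sign to 0.054 under spike-in scaling.

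Base excision held the largest called fall in MeWo. UNG, the glycosylase that removes uracil from DNA (chromosome 12, 109097597 to 109126725, plus strand), stood at 51.0, 59.1 and 61.2 in the MeWo controls and at 44.4, 21.6 and 24.0 with Dox. All Dox libraries were lower, and replicate 1 was much closer to the controls than the others. The change was −0.97 ± 0.24 (adjusted p = 0.00925) with that library and −1.28 (adjusted p = 5.4e-05) without it, and it was not called when MeWo was fitted alone (adjusted p = 0.0999). The SkMel28 levels of UNG were 82.4, 46.0 and 58.2 without Dox and 63.5, 50.5 and 70.7 with Dox, which overlap (0.0119 ± 0.24, adjusted p = 0.991). The changes differed by −0.98 ± 0.34 between the lines (adjusted p = 0.0799, not called), and the difference was called without MeWo Dox replicate 1 (−1.30, adjusted p = 0.00132) or SkMel28 control replicate 1 (−1.20, adjusted p = 0.0467).

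PARP1, which senses strand breaks and adds poly(ADP-ribose) (chromosome 1, 226360210 to 226408154, minus strand), stood at 187, 174 and 213 in the MeWo controls and at 150, 102 and 131 with Dox. In SkMel28 it stood at 111, 110 and 104 without Dox and at 130, 116 and 112 with Dox. The Dox libraries were all lower in MeWo and all higher in SkMel28, where Dox replicate 3 was only just above the highest control. The MeWo change was −0.59 ± 0.14 (adjusted p = 0.00643), and without MeWo Dox replicate 1 it was −0.71 (adjusted p = 0.000231). Scaled to spike-ins it was −0.32 (adjusted p = 0.257), and fitted alone its adjusted p was 0.095. In SkMel28 the change was 0.14 ± 0.14 (adjusted p = 0.611, not called). The difference was −0.73 ± 0.19 (adjusted p = 0.0317), and without any 1 of 9 libraries it was between −0.79 and −0.58 with an adjusted p of 0.0505 to 0.0951. Those libraries were the MeWo controls, MeWo Dox replicate 2, the SkMel28 controls and SkMel28 Dox replicates 1 and 2. It was also not called under spike-in scaling (−0.36, adjusted p = 0.41) or without the mean-variance trend (adjusted p = 0.0906).

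The other 5 base excision genes ranged from −0.31 (APEX1) to 0.79 (OGG1) in MeWo and, together with PARP1 and UNG, from −0.40 (PARP2) to 0.57 (APEX1) in SkMel28. The scaffold XRCC1 and its partner LIG3, the ligase that seals the nick, had changes of −0.24 and −0.11 in MeWo and −0.30 and −0.025 in SkMel28. None of these was called by limma over all libraries. Without SkMel28 control replicate 2, APEX1 was called higher with Dox in SkMel28 (0.97, adjusted p = 0.0235), and edgeR and DESeq2 called OGG1 higher in MeWo (adjusted p = 0.0477 and 0.0309). CAMK1 covers the end of OGG1 on the other strand and went from a mean of 6.93 to 11.0 in MeWo. Its change of 0.54 ± 0.30 was in the direction of OGG1 and not called by limma (adjusted p = 0.24). The route's median in MeWo was −0.24 and changed sign to 0.017 under spike-in scaling.

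ERCC3 was the member called higher with Dox. It encodes a helicase of transcription factor TFIIH that opens DNA around a bulky lesion (chromosome 2, 127257290 to 127294166, minus strand). It stood at 46.9, 42.7 and 43.7 in the MeWo controls and at 44.7, 88.3 and 96.5 with Dox. Dox replicate 1 lay within the control range, and the rise rests on replicates 2 and 3. The change was 0.70 ± 0.21 (adjusted p = 0.0335), and without Dox replicate 1 it was 1.04 (adjusted p = 1.33e-05). The call was lost without Dox replicate 2 (0.56, adjusted p = 0.135) or 3 (0.49, adjusted p = 0.174), without MeWo control replicate 1 (0.0669), 2 (0.11) or 3 (0.0961), without the mean-variance trend (0.081), and when MeWo was fitted alone (0.211). In SkMel28 ERCC3 had levels of 49.8, 61.9 and 62.1 without Dox and of 49.6, 59.8 and 50.5 with Dox (−0.12 ± 0.21, adjusted p = 0.809). The other 7 nucleotide excision genes were not called in MeWo (−0.30 to 0.18), and none of the 8 was called in SkMel28 (−0.65 for ERCC2 to 0.36 for DDB2, smallest adjusted p 0.0958 for XPA). Of all genes 16.7% were called in MeWo and 10.9% in SkMel28.

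Of the 9 mismatch repair and end-joining genes 0 were called in either line by limma in the fit described above or by edgeR. In that limma fit 16.7% of all genes were called in MeWo and 10.9% in SkMel28. DESeq2 called XRCC5 higher in MeWo (adjusted p = 0.0463). Other settings of limma also called end-joining genes in MeWo. XRCC5 (0.0143) and LIG4 (0.0385) were higher under spike-in scaling, and LIG4 was higher without the mean-variance trend (0.0403). With a GC trend removed, XRCC5 (0.0351) and LIG4 (0.046) were higher and XRCC6 (0.0355) was lower. At an unadjusted p under 0.05 limma gave 2 end-joining genes higher and 1 lower in MeWo. MSH3, MSH6, PMS1 and PMS2 had changes of −0.44 to −0.052 in MeWo and −0.47 to −0.021 in SkMel28, and the MeWo median of −0.15 changed sign to 0.11 under spike-in scaling. Of the end-joining genes, XRCC5 and XRCC6 encode the subunits of the Ku ring, which binds break ends. XRCC5 stood at 319, 308 and 320 in the MeWo controls and at 330, 489 and 399 with Dox. In SkMel28 it stood at 509, 526 and 564 without Dox and at 463, 469 and 467 with Dox. Every Dox library was higher in MeWo and lower in SkMel28, by a small margin for MeWo Dox replicate 1. The changes of 0.34 ± 0.12 and −0.19 ± 0.12 were not called (adjusted p = 0.0628 and 0.37). XRCC6 had −0.64 in MeWo (adjusted p = 0.0658) and 0.015 in SkMel28. LIG4, the ligase of the route, had 0.71 and 0.39, and PRKDC, its kinase, had −0.12 and 0.069.

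Leaving out MeWo Dox replicate 1 raised the number of members called in MeWo from 5 to 14, or 25.9% of the 54, while the share over all genes rose to 31.0%. The 14 include the 5 above. The 9 added, named here after their values were seen, are BRCA2 (−1.39), BARD1 (−0.57), PALB2 (−0.71), NBN (−0.63), FANCL (−0.74), MSH6 (−0.78) and XRCC6 (−0.84) as lower and XRCC5 (0.48) and OGG1 (1.38) as higher. MSH6 is an example: its MeWo levels were 55.3, 62.2 and 54.1 without Dox and 68.0, 34.9 and 30.8 with Dox. Replicate 1 was above every control there and replicates 2 and 3 below. OGG1, the glycosylase for oxidised guanine, likewise had 7.77, 6.22 and 8.42 without Dox and 5.43, 19.0 and 23.0 with Dox. MITF was 451 in replicate 1 against 354 and 371 in the others. Other single removals called BRCA1 lower in MeWo (−0.68, without MeWo Dox replicate 2), BRCA2 lower (−1.32, without MeWo control replicate 2), XRCC4 lower (−0.93, without MeWo control replicate 3) and XRCC6 lower (−0.64, without SkMel28 control replicate 2).

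A change that differed between the lines was called for 4 of the 54 members (7.41%, against 7.09% of all genes). ATM and PARP1, described above, fell in MeWo and were not called in SkMel28, where their values were above 0. RAD54L and FANCI fell in SkMel28 and were not called in MeWo, with changes of 0.20 and 0.094. RAD54L had levels of 4.03, 6.22 and 6.80 in the MeWo controls and of 6.06, 7.58 and 6.10 with Dox, which overlap. The difference was 1.10 ± 0.32 (adjusted p = 0.0486) for RAD54L, which lost its call in 17 of 22 alternatives, with values from 0.91 to 1.25 and adjusted p from 0.0544 to 0.105. Among these were edgeR (0.0572), DESeq2 (0.0834) and the removal of any 1 library other than MeWo Dox replicate 1. LRRC41, the gene on the other strand, itself had a difference of −1.05 ± 0.30 (adjusted p = 0.0452). For FANCI the difference was 0.83 ± 0.21 (adjusted p = 0.0278). That call was lost without the mean-variance trend (0.0659) and without any 1 of 10 libraries, all but MeWo Dox replicate 1 and SkMel28 control replicate 1 (0.70 to 0.87, adjusted p 0.0512 to 0.0772). In the fit without MeWo Dox replicate 1 all 4 differences were called, with adjusted p of 0.0221 (RAD54L), 0.00248 (ATM), 0.00146 (FANCI) and 0.00105 (PARP1), and 14 members were called in all (25.9%, against 24.7% of all genes in that fit).

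**Figure D3:**
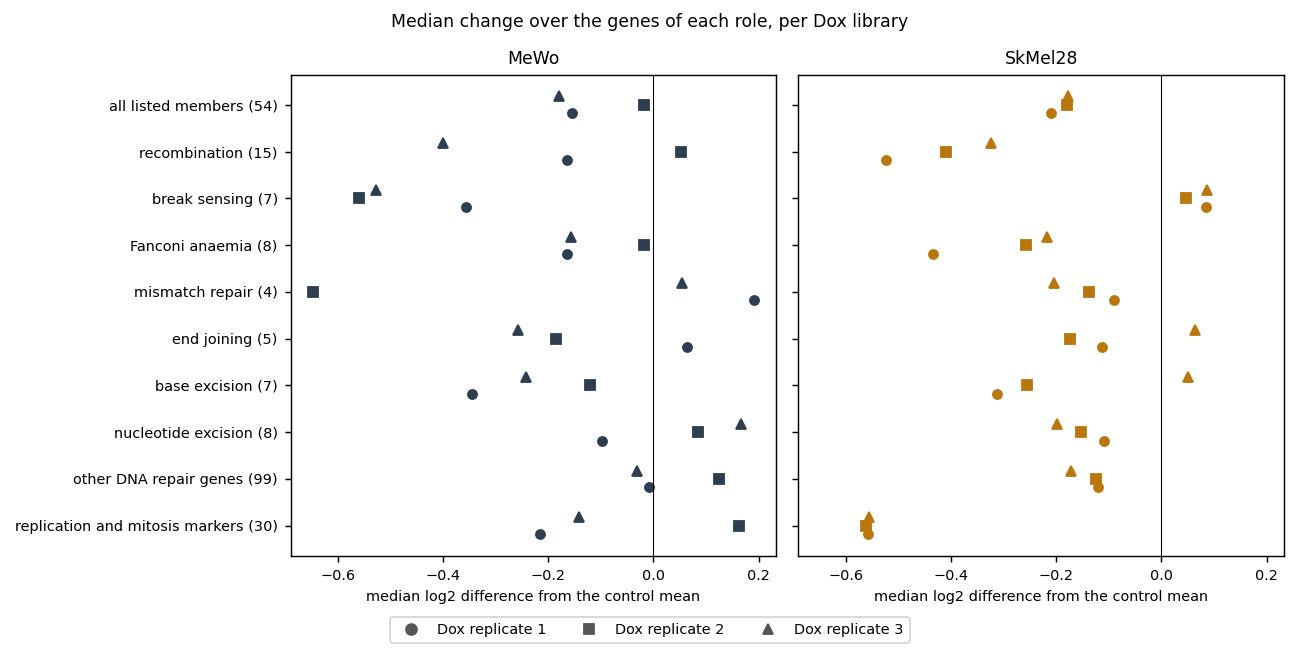
Median over the genes of each repair route, and over 2 further lists, of the log2(level + 1) difference from the mean of the line's controls (x axis), for each Dox library of MeWo (left) and SkMel28 (right), with the number of genes in brackets. In SkMel28 the recombination medians lie between −0.52 and −0.32 and those of the replication and mitosis markers near −0.56 in all 3 libraries, while in MeWo the break-sensing medians are the ones below −0.35 in every library. Under spike-in scaling the fitted MeWo medians of all members, Fanconi anaemia, mismatch repair, end joining, base excision and the markers turn positive, and the SkMel28 medians of break sensing and end joining turn negative.

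Many repair genes are transcribed mainly in cells that copy their DNA, and the values of 30 replication and mitosis markers stand beside the recombination genes for that reason. In SkMel28 16 of the 30 markers were called lower with Dox (53.3%, against 5.04% of all genes), 29 lay below 0, and their median change was −0.59. The per-library medians were −0.56, −0.56 and −0.56, against −0.52, −0.41 and −0.32 for recombination. AURKB fell by 0.93, TPX2 by 0.84, TOP2A by 0.72 and AURKA by 0.86 on the log2 scale. In MeWo 5 were called lower (16.7%, against 8.12% of all genes) and 0 higher (against 8.58%). AURKB and AURKA were among the 5, with changes of −1.02 and −1.01 (adjusted p = 0.000334 and 0.000678 by limma), so both were called lower in both lines. The MeWo median over the 30 markers was −0.076 (0.19 under spike-in scaling), with per-library medians of −0.22, 0.16 and −0.14.

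A further list of 99 measured DNA repair genes outside the 54 had 7 called lower with Dox in SkMel28 (7.07%, against 5.04% of all genes). In MeWo 5 were called lower (5.05%, against 8.12%) and 4 higher (4.04%, against 8.58%). UBE2T, the ubiquitin-conjugating enzyme of the Fanconi route, fell in both lines, from a mean of 23.7 to 14.4 in MeWo (−0.68 ± 0.16, adjusted p = 0.00636) and from 52.0 to 25.3 in SkMel28 (−1.01 ± 0.16, adjusted p = 0.00033). RMI2, a partner of BLM, also fell in both, by 0.94 in MeWo (adjusted p = 0.000251) and by 0.84 in SkMel28 (adjusted p = 0.00111). MPG, a glycosylase for alkylated bases, rose by 0.93 in MeWo (adjusted p = 0.00138). LIG1, the replicative ligase, and TOPBP1, an activator of ATR, fell in SkMel28 by 0.64 and 0.71 (adjusted p = 0.0099 and 0.0216). The list's median was 0.037 in MeWo and −0.11 in SkMel28, with the same signs under spike-in scaling. Of 19 measured p53 targets, 3 were called higher (15.8%, against 8.58% of all genes) and 1 lower (5.26%, against 8.12%) in MeWo. In SkMel28 2 were called higher (10.5%, against 5.88%) and 3 lower (15.8%, against 5.04%). PLK2 rose in both lines, by 2.83 and 1.12, BBC3 fell in both, by 0.75 and 0.59, and GDF15 rose by 1.27 in MeWo and fell by 0.58 in SkMel28.

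Without Dox the share of these genes called between the lines was near that of all genes, and the direction leaned to SkMel28. Of the 54, 28 were called between SkMel28 control and MeWo control (51.9%, against 51.4% of all genes), 22 higher in SkMel28 (40.7%, against 26.6%) and 6 lower (11.1%, against 24.8%). The median difference, SkMel28 minus MeWo, was 0.51 over the members and 0.00 over all genes. Of the 30 replication and mitosis markers 23 were called higher (76.7%, against 26.6%) and 1 lower (3.33%, against 24.8%) in SkMel28, with a median of 0.91. Their part in the difference was not tested. The 13 members below differed by at least 1 on the log2 scale.

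**Figure D4:**
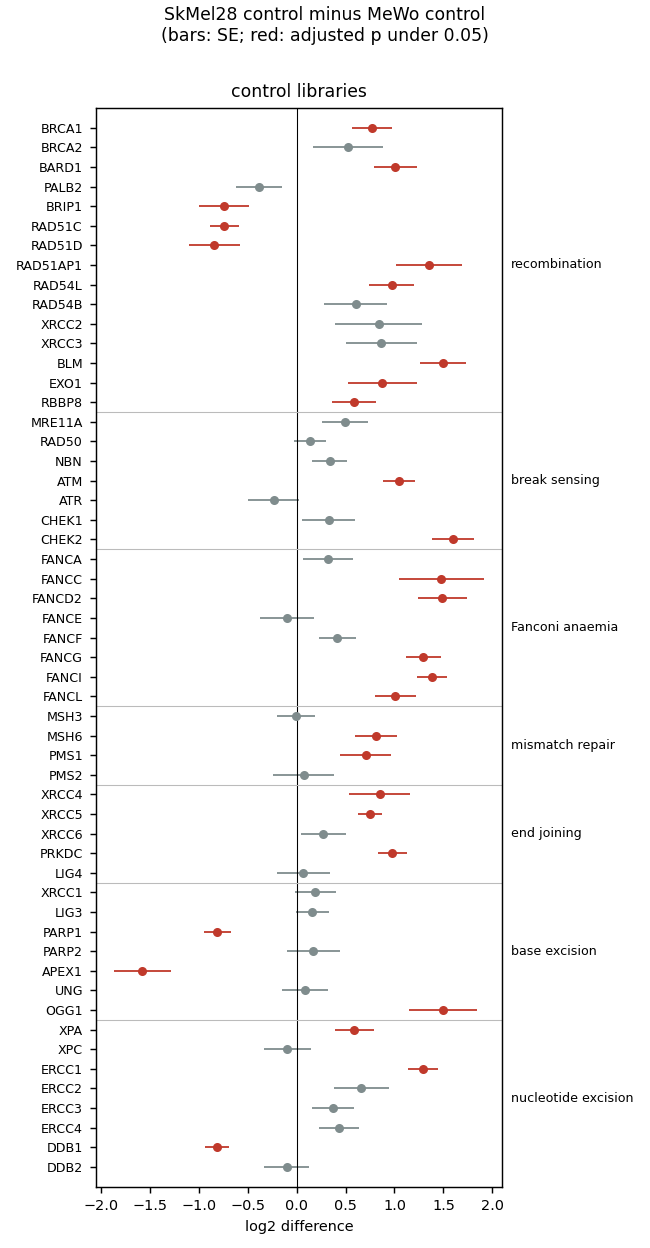
Difference in mean log2(level + 1) between the control libraries, SkMel28 minus MeWo (x axis, bars ± SE, 3 libraries per line), for each of the 54 repair genes by route. Red marks the 28 called genes, 22 to the right of 0 and 6 to the left, with APEX1 the lowest at −1.58 and CHEK2 the highest at 1.59.

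Among recombination genes, BARD1, the partner of BRCA1, stood at 19.6, 15.2 and 16.2 in MeWo and at 34.0, 34.0 and 37.2 in SkMel28 (1.01 ± 0.22, adjusted p = 0.000836). RAD51AP1, which helps strands pair, had 3.74, 3.11 and 5.51 against 13.1, 14.3 and 8.81 (1.35 ± 0.34, adjusted p = 0.00281). BLM had 4.32, 7.77 and 5.83 against 18.9, 15.5 and 20.7 (1.50 ± 0.24, adjusted p = 4.78e-05). In all these genes every SkMel28 control was above every MeWo control. With Dox, SkMel28 BLM (mean 8.94 ± 1.61, SD, n = 3) lay closer to the MeWo control mean of 5.97 ± 1.73, and RAD54L and BRCA1 came to 5.89 ± 0.303 and 24.5 ± 3.96, against 5.68 ± 1.46 and 32.7 ± 4.06 in MeWo control. In the other direction, BRIP1, RAD51C and RAD51D were called lower in SkMel28, by 0.74, 0.74 and 0.84.

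ATM and CHEK2 were both higher in SkMel28, with the control levels given above, by 1.05 ± 0.16 (adjusted p = 3.5e-05) and 1.59 ± 0.22 (adjusted p = 8.31e-06). Of the Fanconi anaemia genes 5 of 8 were called higher and none lower, where 26.6% of all genes were called higher and 24.8% lower. FANCD2, the partner of FANCI, had 9.79, 6.60 and 5.51 in MeWo and 20.3, 20.9 and 24.1 in SkMel28 (1.49 ± 0.25, adjusted p = 8.76e-05). FANCG, a subunit of the core complex, had 13.5, 14.4 and 13.6 against 36.5, 28.6 and 42.5 (1.30 ± 0.18, adjusted p = 1.24e-05). FANCL, the ubiquitin ligase of that complex, had 54.7, 62.9 and 46.6 against 117, 89.5 and 128 (1.01 ± 0.21, adjusted p = 0.000599). FANCI differed by 1.38 ± 0.15 (adjusted p = 7.39e-07). None of these groups overlap. POLG, on the other strand over the end of FANCI, was itself higher in SkMel28 by 0.74 ± 0.16 (adjusted p = 0.000777). VRK2, placed likewise over FANCL, had a difference of 0.54 ± 0.28 (adjusted p = 0.112). FANCC, another core subunit, had 2.02, 1.55 and 1.30 against 4.73, 9.52 and 5.36, from 4 to 7 reads in MeWo. Its difference of 1.48 ± 0.43 (adjusted p = 0.00863) was not called with a pseudocount of 0.1 (adjusted p = 0.0976). C9orf3, which covers the end of FANCC on the other strand, was itself higher in SkMel28 by 1.87 ± 0.29 (adjusted p = 3.7e-05), and whether reads were counted by strand is not given in the sources used here.

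Base excision held differences in both directions. APEX1, the endonuclease that cuts the strand after a glycosylase has acted, had 67.4, 78.9 and 101 in MeWo and 22.0, 47.0 and 18.0 in SkMel28 (−1.58 ± 0.29, adjusted p = 0.000202). OGG1 had 7.77, 6.22 and 8.42 against 20.6, 21.9 and 26.1 (1.50 ± 0.34, adjusted p = 0.00146). The lines do not overlap for either gene, and SkMel28 replicate 2 of APEX1 stands well above its other libraries. TMEM55B and CAMK1, on the other strand over the ends of APEX1 and OGG1, differed by −0.48 and −2.58. PARP1 was lower in SkMel28 by 0.81. In nucleotide excision ERCC1, the subunit of the nuclease that cuts 5′ of the lesion, had 23.9, 22.1 and 21.1 against 57.9, 57.1 and 53.3 (1.29 ± 0.15, adjusted p = 1.69e-06), with no overlap and tight replicates. DDB1, a subunit of the ligase that recognises photoproducts, was lower in SkMel28, with means of 145 ± 14.1 against 256 ± 7.22 (−0.81 ± 0.12, adjusted p = 2.16e-05). The 3 called end-joining genes, XRCC4, XRCC5 and PRKDC, were higher in SkMel28 by 0.85, 0.75 and 0.98. The 2 called mismatch genes, MSH6 and PMS1, were higher by 0.81 and 0.70. FBXO11, on the other strand over the end of MSH6, was itself higher by 0.51 ± 0.16 (adjusted p = 0.0153). Under spike-in scaling 28 members were called (51.9%, against 46.5% of all genes). Of these 24 were higher (44.4%, against 28.8%) and 4 lower (7.41%, against 17.7%), and 26 were among the 28 above. BRIP1 and RAD51D lost their call (adjusted p = 0.0947 and 0.0522), and XRCC3 and ERCC2 gained one (0.025 and 0.047).

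The RefSeq windows from 250 bases before to 50 after the start, 300 in all, were found for 49 of the 54 members (not RAD54B, NBN, FANCI, XRCC5 and PRKDC), with 71 windows in total. E2F letters (TTTCCCGC, TTTGGCGC or TTTCGCGC), E-box letters (CACGTG or CATGTG) and the CHR letters TTTGAA were searched on both strands. E2F letters stood in 8 members (16.3%), against 5.70% of the 9528 listed genes with a window and 2.74% of all 35116 windows. They were EXO1, FANCC, FANCD2, MSH3, MSH6, XPC, XRCC2 and XRCC6, and in MSH3 both matches overlap each other. None of these 8 was called with Dox in the fit over all libraries, where 16.7% of all genes were called in MeWo and 10.9% in SkMel28. E-box letters stood in 9 members (18.4%), against 21.3% of listed genes and 17.6% of windows, and CHR letters in 7 (14.3%), against 13.6% and 15.2%. Of the members called in MeWo, UNG held E-box and CHR letters and ATM held CHR letters, with the E-box match of the printed UNG stretch 80 bases before the start. The windows of BRCA1, RAD54L, XRCC3, BLM and CHEK2 held no match. A match is a description of letters and not a binding site.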

How the data were processed

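Total RNA of 12 MeWo and SkMel28 samples was sequenced with the QuantSeq Forward kit, which reads 3′ ends. The authors deposited a normalised signal for 12683 features: edgeR-normalised reads per 1000000, on hg38. The submitters' processing notes name FastQC 0.11.7, cutadapt 2.8, STAR 2.5.1b and edgeR. The counting tool, its annotation and strand setting are not given in the sources used here. Low features were removed before deposition, and each listed feature reaches 1 in at least 3 libraries. After 67 spike-ins were set aside, limma 3.58.1 (R 4.3.3, moderated by eBayes with a mean-variance trend) tested 12616 genes on the scale of log2(value + 1), 2-sided, in 1 fit of 4 group means, with Benjamini-Hochberg adjustment over all genes and calls at an adjusted p under 0.05. Dividing by the value of 1 read gave whole reads for 100% of values (tolerance 0.02), on which edgeR 4.0.16 (quasi-likelihood) and DESeq2 1.42.0 were run. Groups with at most 3 reads per library are at the floor. Floors cover counting error only, as reads without molecular identifiers are not independent molecules. Scripts were tested on simulated data.

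Alternatives were upper-quartile and spike-in scaling, pseudocounts of 0.1 and 5, a filter of at least 5 in 3 libraries, both count tests, no trend, a replicate block, each line fitted alone and the removal of each library. Removal of a GC trend was added after seeing the data. The members and lists were chosen with earlier results of these data known. Members called with Dox or in the difference between lines, or called between the controls with at least 1 on the log2 scale, are given by library, and the others by range. From further lists at most 4 genes per line are named, and 1 gene that the rule would name is not reported here.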

Additional observations from a re-analysis of the deposited data

Results flagged for a closer look

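A difference between the lines in the change with Dox was called by limma for 4 of the 54 repair genes (7.41%, against 7.09% of all genes). MeWo minus SkMel28, it was 1.10 ± 0.32 for RAD54L (adjusted p = 0.0486), −1.02 ± 0.23 for ATM (adjusted p = 0.0128), 0.83 ± 0.21 for FANCI (adjusted p = 0.0278) and −0.73 ± 0.19 for PARP1 (adjusted p = 0.0317). Among the alternative settings RAD54L lost this call in 17 and kept it in 5. FANCI and PARP1 each lost it in 11 and kept it in 11. ATM lost it in 1, under spike-in scaling, and kept it in 21. For ATM and PARP1 every Dox library lay below the controls in MeWo and above them in SkMel28, there by a small margin. The lowest SkMel28 Dox library stood at 50.5 against a highest control of 50.1 for ATM, and at 112 against 111 for PARP1. Neither change was called in SkMel28 (adjusted p = 0.246 and 0.611 by limma). XRCC5 moved oppositely in every library, higher in the 3 MeWo Dox libraries and lower in the 3 SkMel28 Dox libraries, and its difference of 0.53 ± 0.17 was not called (adjusted p = 0.0652). It was called without MeWo Dox replicate 1 (0.67, adjusted p = 0.000827).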

How the results depend on the processing

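Over 23 alternatives the 28 called results of single members that were recomputed kept their direction, and of 639 such values 545 kept the call and 94 lost it. Members that were not called did change sign, under spike-in scaling 15 of 54 in MeWo and 8 in SkMel28. When MeWo was fitted alone, limma called 0 members, against 5, while the share over all genes was 6.44%, against 16.7%. At an unadjusted p under 0.05 this fit gave 1 member higher and 7 lower. It uses 6 libraries in place of 12. On all libraries edgeR called 5 members and 16.2% of all genes in MeWo. For the difference between the lines, 4 members were called, 7 when scaled to spike-ins (7 higher, 0 lower, near the share over all genes, where 1519 of 12616 were called against 894 before) and 2 without the mean-variance trend. The cause was not tested. Leaving out 1 library at a time gave 3 to 14 members in MeWo, 2 to 6 in SkMel28, 1 to 14 in the difference and 23 to 30 between the controls. The 14 came without MeWo Dox replicate 1 in both cases, the 3 without MeWo Dox replicate 3, and the 2 without SkMel28 control replicate 3. The fit then assumes that a group of 2 varies like the others. The share over all genes moved too. Without MeWo Dox replicate 1 it was 31.0% in MeWo and 24.7% in the difference. Without MeWo Dox replicate 3 it was 10.3% in MeWo. No difference between the lines could be fitted from 1 line alone, and XRCC3 was removed by the stricter filter.

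With the replicate number as a block, 4 members were called in MeWo, 6 in SkMel28, 3 in the difference and 27 between the controls. Of all genes 15.7% were called in MeWo in this fit. The labels do not say whether equal numbers pair the libraries. Deviations of same-numbered libraries correlated at −0.18, −0.035 and 0.042 in MeWo and −0.046, 0.045 and 0.16 in SkMel28. Not every library correlated best with its own number, though SkMel28 replicate 3 did. Deviations from means of 3 libraries cannot decide whether a culture or day was shared.

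Members with few reads limit what can be seen: XRCC2 had at most 8 reads in any library, and a library's floor of 3 reads equals a level of 0.835 to 1.17.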
